A study of Panicum virgatum with 8 samples.

Results

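The miR159 and miR319 families were described in switchgrass (Panicum virgatum) from the deposited table of predicted miRNA hairpins. A locus was taken as a member when its more abundant strand carried a miRBase name with miR159 or miR319, and 14 of the 210 loci met this rule, 10 of miR159 and 4 of miR319. The rule used names and which strand was the more abundant, not the length, energy or position of the hairpin.

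Small RNA was sequenced from plants of 1 strain, AP13, all grown in a greenhouse, in 8 libraries with 1 library for each condition. The stress set held a cold treatment (24 h at 4 °C), its control, drought sampled 11 days after watering stopped, re-watering after drought sampled on day 12, and the drought control. The tissue set held leaf, stem and panicle. The sample labels give above ground tissue for the 5 libraries of the stress set, whereas the methods name upper leaf blades. The table lists 494 structures and names no library, so its values are read here as pooled over the 8 libraries. No replicate error can be given for them, conditions could not be compared, and read totals per library were not analysed here. Abundances are whole numbers whose unit the table does not name.

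In plants, miR159 pairs with transcripts of GAMYB-like MYB transcription factors and miR319 with transcripts of TCP transcription factors, which act in leaf growth. The families are related in sequence. In Arabidopsis, their long hairpins are known to be cut in several steps that begin near the loop and move towards the base, where most plant miRNA hairpins are cut from the base.

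The families were represented by 4 distinct mature sequences, 3 of miR159 and 1 of miR319, which are given because every count below rests on their letters. Each is written 5′ to 3′ as deposited, in DNA letters, with the seed (bases 2 to 8) in capitals. The names are those of the matching miRBase entries in other plants (bdi, Brachypodium; cpa, papaya; pde, the pine Pinus densata).
bdi-miR159b-3p.1: tTTGGATTgaagggagctctg
cpa-miR159b: cTTGGATTgaagggagctcc
pde-miR159: tTTGGTTTgaagggagctcta
bdi-miR319b-3p: tTGGACTGaagggtgctccct
The sequence cpa-miR159b was 20 nt long and the other 3 were 21 nt long. The seed TTGGATT was shared by bdi-miR159b-3p.1 and cpa-miR159b, while TTGGTTT of pde-miR159 and TGGACTG of bdi-miR319b-3p were each held by 1 sequence. None of these seeds occurred in a sequence of another family among the 59 distinct miRNA sequences of the table.

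Differences between the sequences were counted from position 1 at the 5′ end of bdi-miR159b-3p.1, with its base given before the position and the base of the other sequence after it. cpa-miR159b differed at T1C and T20C and was identical at 18 of 20 positions compared. pde-miR159 differed at A6T, which lies in the seed, and at G21A, and was identical at 19 of 21. The miR159 sequences therefore kept the same frame and differed mostly at their ends. bdi-miR319b-3p aligned best when its 5′ end was set 1 nt further into bdi-miR159b-3p.1, and was then identical at 16 of 20 positions, with T7C, A15T, T20C and G21C. In that frame it shared 17 of 19 positions with cpa-miR159b and 15 of 20 with pde-miR159. The miR319 sequence thus shared more positions with cpa-miR159b, which carries the same base as miR319 at position 20, than with the other miR159 sequences.

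The deposited abundance of bdi-miR159b-3p.1 was 5079, which was rank 5 of the 59 sequences. It was 100 for cpa-miR159b (rank 32) and 3 for pde-miR159 (rank 58). Most of the listed miR159 abundance was therefore that of 1 sequence, since bdi-miR159b-3p.1 made up 98.0% of the miR159 sum of 5182, and its value was 50.8 times that of cpa-miR159b and 1693 times that of pde-miR159. bdi-miR319b-3p was listed at 10152 (rank 3), between ata-miR168-5p at 42436 and ata-miR5168-3p at 5562. The ratio of bdi-miR159b-3p.1 to bdi-miR319b-3p was 0.500, and that of the miR159 sum to the miR319 sequence was 0.510. Of the abundance summed over the 59 sequences (280996), miR159 took 1.84% and miR319 3.61%, so that 4 sequences held 5.46%. Each value is a single pooled number without an error, and whether neighbours in this order differ beyond replicate error cannot be said. The nearest neighbours of bdi-miR159b-3p.1 were ata-miR5168-3p above and ata-miR167d-5p (4837) below. cpa-miR159b stood between ata-miR160c-5p (117) and ata-miR528-5p (77), and of the sequences below pde-miR159 there was only bdi-miR169m, at 2. The abundance belongs to the sequence and not to a locus, so the share of bdi-miR159b-3p.1 that came from each of its 6 loci is not known.

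**Figure D1:**
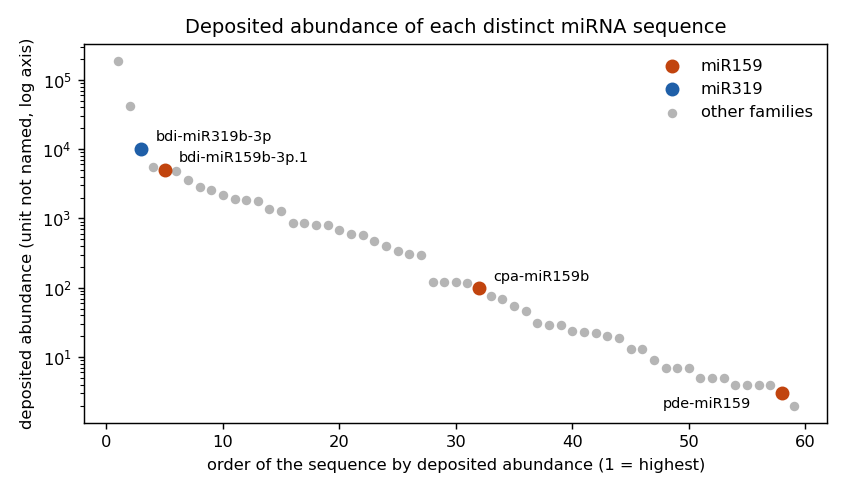
Deposited abundance (unit not named, log axis) of the 59 distinct miRNA sequences, ordered from highest to lowest, with 1 point for each sequence pooled over the 8 libraries. bdi-miR159b-3p.1 (5079) and bdi-miR319b-3p (10152) lie near the upper end, cpa-miR159b (100) lies in the middle, and pde-miR159 (3) is next to the lowest point.

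All 14 loci were on chromosome 5, with 7 on its K copy and 7 on its N copy, the homoeologous chromosomes of this tetraploid grass. Of all 210 loci, 16.2% were on chromosome 5, and of the 196 loci of other families 20 were. Along either copy, the loci stood in 1 order: cpa-miR159b, bdi-miR319b-3p, pde-miR159, 3 loci of bdi-miR159b-3p.1, and a second bdi-miR319b-3p locus at a distance. They are numbered 1 to 7 here in that order. Positions are those of the deposited table, on version 4.1 of the switchgrass genome. A genome or gene annotation of that version was not used here, so the genes around the loci are not given.

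At locus 1, cpa-miR159b was on the minus strand at Chr05K:3032013-3032234 and Chr05N:2411385-2411606. At locus 2, bdi-miR319b-3p was on the plus strand at Chr05K:3040900-3041121 and Chr05N:2422377-2422597. A miR159 hairpin and a miR319 hairpin thus lay next to each other on opposite strands and pointed away from each other, 8.665 kb apart on the K copy and 10.77 kb apart on the N copy.

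Loci 3 to 6 formed a row of 4 miR159 hairpins, all on the minus strand. pde-miR159 was at Chr05K:15253915-15254144 and Chr05N:16044155-16044392. bdi-miR159b-3p.1 followed at locus 4 (Chr05K:15256931-15257180, Chr05N:16080088-16080321), at locus 5 (Chr05K:15266413-15266687, Chr05N:16087669-16087937) and at locus 6 (Chr05K:15274195-15274445, Chr05N:16100010-16100272). The lowly listed pde-miR159 sequence and the abundant bdi-miR159b-3p.1 sequence were therefore neighbours in the genome. The row spanned 20.531 kb on the K copy and 56.118 kb on the N copy. Most of this difference lay between loci 3 and 4, with 2.786 kb on K against 35.695 kb on N. The other gaps were 9.232 and 7.507 kb on K, and 7.347 and 12.072 kb on N. Locus 7, the other bdi-miR319b-3p hairpin, was on the minus strand at Chr05K:82229771-82229990 and Chr05N:75857400-75857619, far from the rest.

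Another miRNA locus of the table lay within 50 kb of 12 of the 14 loci, all 10 of miR159 and 2 of the 4 of miR319. Over all 210 loci this held for 16.2%, and for 22 of the 196 loci of other families. Loci that overlap were not counted as neighbours of each other, so these shares may be too low. The 50 kb distance was chosen after the positions were seen, so this count is a description.

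**Figure D2:**
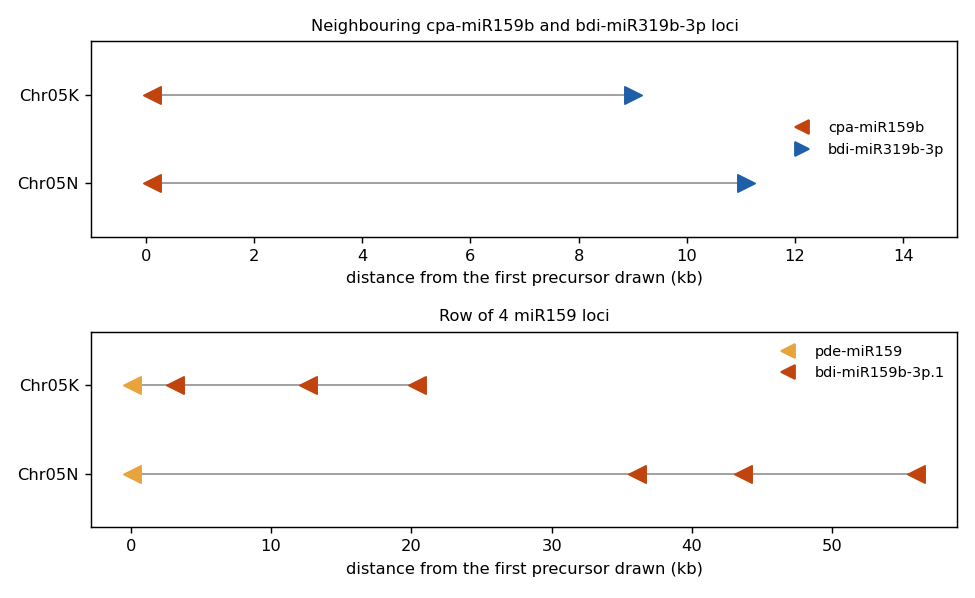
Distance (kb) of each precursor from the first one drawn on Chr05K and Chr05N, for loci 1 and 2 in the upper panel and loci 3 to 6 in the lower panel; arrowheads point in the direction of the strand. The order and strands are the same on both copies, and the wide gap on N is that of 35.695 kb between pde-miR159 and the nearest bdi-miR159b-3p.1 locus.

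The precursors of both families were long. Their length from start to stop was between 222 and 275 nt for miR159 (median 244 nt, 10 loci) and between 220 and 222 nt for miR319 (median 220.5 nt, 4 loci), against 75 to 448 nt with a median of 137 nt for the 196 other loci. All 14 had at least 200 nt, which held for 17.1% of all 210 loci and for 22 of the 196 others. Among the other families, only miR408 (3 loci, median 220.0 nt) had a median length within the range of the 14 loci. Single loci of other families reached it as well, since 16 of the 196 were at least 220 nt long. The miR159 precursors varied among themselves and the 4 miR319 precursors differed by at most 2 nt. The distance between the miRNA and the miRNA*, the strand that pairs with it, was 131 to 194 nt in miR159 (median 171.5 nt) and 128 to 130 nt in miR319 (median 128.5 nt), against a median of 57.5 nt in the other loci. The spacing at locus 1 (131 nt on both copies) was thus close to that of the miR319 hairpins, and the other 8 miR159 loci had 161 nt or more.

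In all 14 hairpins the named miRNA was on the 3′ arm, which was the case for 45.7% of all 210 loci and for 82 of the 196 others. The 14 loci carry only 4 mature sequences, so they are not independent cases. Every locus of either family had its abundant strand there, and 8 loci also had structures listed for the opposite strand. The share of all 210 loci with structures for both strands was not counted, so nothing about the families is read from the 8.

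**Figure D3:**
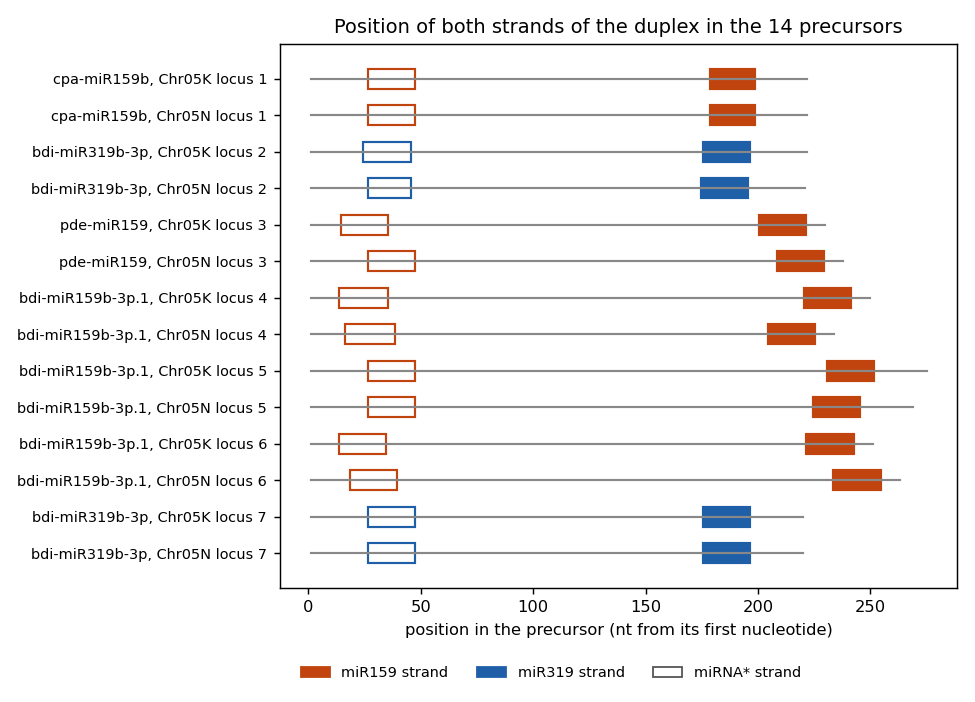
Position (nt from the first nucleotide of the precursor) of the miRNA strand, drawn filled, and of the miRNA* strand, drawn open, in the 14 precursors, with the K copy above the N copy for each locus. The miRNA lies on the 3′ side in each, and the stretch between the strands is 128 to 131 nt at loci 1, 2 and 7 and 161 to 194 nt at loci 3 to 6.

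A hairpin that is cut in several steps can release more than 1 duplex. Another listed miRNA starting at least 10 nt from both strands of the main duplex was found at 0 of 10 miR159 loci and 0 of 4 miR319 loci. It was found for 3.81% of all 210 loci, which were 8 loci of miR166 and miR5168 whose hairpins overlap. Brachypodium miR159b has 4 named strands of further duplexes, as listed among the study's Brachypodium miRNAs, and these are shown as the letters that were searched for.
miR159b-3p.2: auccaccccuugccgaccgcug
miR159b-3p.3: uuugcaugaccgaggagccgc
miR159b-5p.2: aaggucugucagaagggugauac
miR159b-5p.3: agcugcuuguucaugguuccc
Each of these sequences, and each of these names, occurred in 0 of the 494 structures. The letters are those of Brachypodium, so a switchgrass strand with other letters and without these names would not be counted. Only the strands listed in the table were searched, and the reads were not analysed here. Per the methods, sequences had to match known miRNAs, and the most abundant reads of a precursor had to make up most of its reads. A further duplex could therefore be missing from the list, so the counts of 0 do not show that none was released.

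The predicted free energy of folding was between -126.1 and -98.3 kcal/mol for miR159 (median -104.8) and between -99.8 and -94.6 kcal/mol for miR319 (median -98.8), against a median of -68.4 kcal/mol for the other 196 loci. The largest value among the 14, -94.6 kcal/mol, was reached or passed by 16 of the 196. Divided by length, the direction was reversed. Per nt of precursor the 14 loci had a median of -0.449 kcal/mol, against -0.497 kcal/mol for the others, and per nt of the deposited hairpin length the medians were -0.478 and -0.545 kcal/mol. The 14 hairpins were therefore lower in energy as a whole, and higher per nt of precursor, than the median of the other loci. Per nt of hairpin they were also higher, except for the K copy of locus 1 at -0.566 kcal/mol. The most stable of them were those of locus 5, with -126.1 kcal/mol on K and -122.7 kcal/mol on N, which were also the longest, at 275 and 269 nt.

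**Figure D4:**
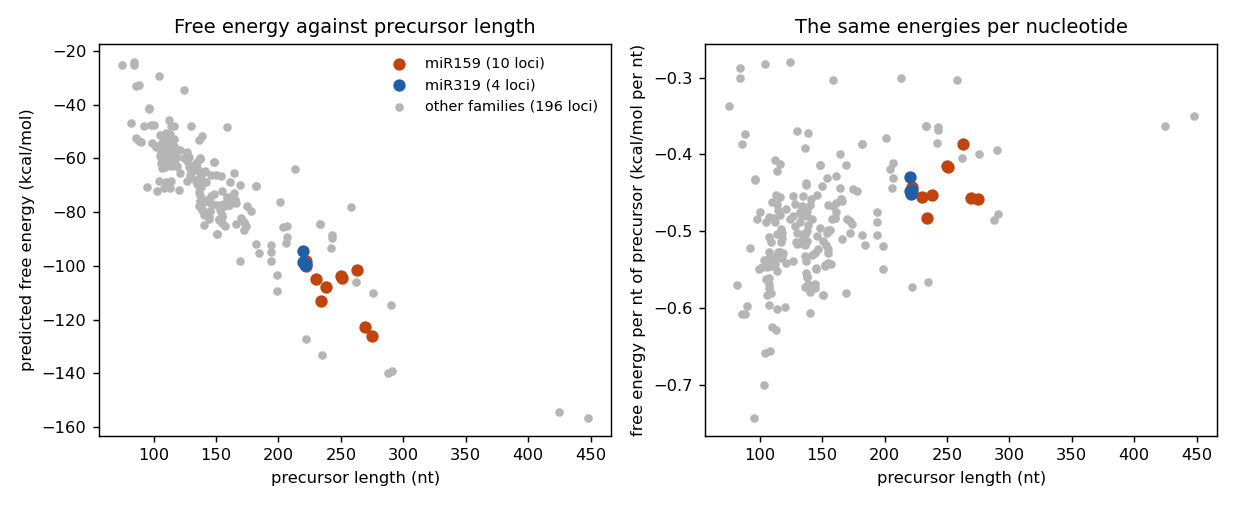
Predicted free energy (kcal/mol, left) and free energy per nt of precursor (kcal/mol per nt, right) against precursor length (nt) for 10 miR159 loci, 4 miR319 loci and 196 loci of other families, 1 point for each locus. The 14 loci lie at 220 nt or more, low in the left panel (median -102.8 kcal/mol) and within the range of the other loci in the right panel.

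The K and N copies were compared in 7 pairs matched by their order along the chromosome and by their miRNA, a pairing made after the positions were seen. The miRNA and the miRNA* were both the same in 5 of the 7 pairs, or 10 of 14 loci, and a K and an N copy of this kind was found for 33.3% of all 210 loci. The precursor was longer on K in 3 pairs, longer on N in 2, and of equal length in 2. Locus 4 differed most, with 250 nt on K against 234 nt on N, and locus 6 was the other way, with 251 nt on K against 263 nt on N. The energy was lower on K in 4 pairs and on N in 3, with a mean difference, K minus N, of 0.0749 ± 4.71 kcal/mol (SD over 7 pairs). The spread over the pairs was thus far larger than their mean difference. The pairs are not replicates, since several share a miRNA, so the mean and SD only describe them. The widest gap was again at locus 4, with -103.9 kcal/mol on K and -113.1 kcal/mol on N.

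The miRNA* strands separated loci that share a miRNA. They are given in lower case, 5′ to 3′, since the 6 bdi-miR159b-3p.1 loci have the same miRNA and differ in this strand as well as in position, length and energy.
locus 4, K and N: gagctcccttccttccaatgaa
locus 5, K and N: gagctcctatcattccaatga
locus 6, K and N: gagctcctatctttccaatga
Locus 6 differed from locus 5 at A12T, counted from the 5′ end of the locus 5 strand, and locus 4 differed from it at T8C, A9T and A12C and was 22 nt long. The strand of locus 5 was listed as bdi-miR159b-5p.1 with an abundance of 12, and those of loci 4 and 6 had no miRBase name and stood at 0. Against the 5079 of the miRNA, the miRNA* of locus 5 gave a ratio of 423, or 2.63 on the log10 scale. This ratio sets 1 locus's miRNA* against a miRNA that 6 loci can make.

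The duplexes of these loci also differed in pairing. With both strands aligned to leave 3′ overhangs of 2 nt, positions 1, 7 and 11 of the miRNA were unpaired at locus 5 on both copies. At locus 6, the change to T added position 8, so that 1, 7, 8 and 11 were unpaired. The numbers of unpaired positions, 3 and 4, were those deposited for these loci. Of the 9 duplexes without a bulge that were aligned in this way, 6 gave the deposited number and 3 gave 1 fewer, namely the K copy of locus 2 (2 against 3 deposited) and both copies of locus 3 (1 against 2 deposited). Locus 4 was deposited with 5 mismatch positions and 1 nt in a bulge, the most mismatches of the 14 loci, and both of its copies were called miRNA-like by the authors and not miRNA candidates. Both copies of locus 6, with 4 mismatch positions, and of locus 1, with 1 nt in a bulge, were called miRNA candidates. What decided the call was not tested.

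The miRNA* strands of pde-miR159 at locus 3 were the pair of miR159 strands that differed between K and N.
locus 3, K: gagctcccttcaagccgatga
locus 3, N: gagctcccttcgagccaatga
They were identical at 19 of 21 positions, and the N strand differed from the K strand at A12G and G17A, counted from the 5′ end. Both were at 0 and unnamed, beside a miRNA listed at 3, the lowest listed abundances of the family. Its duplexes had the fewest mismatch positions of the 14 loci, with 2 on each copy and no bulge.

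At locus 1, the miRNA* of cpa-miR159b was the same on both copies.
locus 1, K and N: agctcccttcgatccaatcca
It was listed as bdi-miR159a-5p with an abundance of 7, against 100 for the miRNA, a ratio of 14.3 (1.15 on the log10 scale). The sequence listed elsewhere under that name is 19 nt long, agctcccttcgatccaatc, so the value of 7 may belong to the shorter sequence. Among the 3 mature sequences that had a listed miRNA*, cpa-miR159b had the lowest ratio.

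For bdi-miR319b-3p, the miRNA* strands separated locus 2 from locus 7.
locus 2, K: agagcgtccttcagtccactc
locus 2, N: agcgtccttcagtccactc
locus 7, K and N: agagctctcttcagtccactc
The strand of locus 2 was listed under a maize name, zma-miR319d-5p, with an abundance of 54 on both copies, and that of locus 7 under a Medicago name, mtr-miR319d-5p, with 14. These strands were identical at 18 of 21 positions, with G6T, T7C and C8T from the 5′ end of the locus 2 strand. The zma-miR319d-5p strand made up 79.4% of their sum of 68. The miR319 sequence was thus listed at 188.0 times its more abundant miRNA* (2.27 on the log10 scale), and at 149 times the sum of both. On the N copy, the deposited miRNA* lacks the 5′ end of the K strand and is 19 nt long, yet carries the same name and value, so its own abundance is not known. That copy, with 4 mismatch positions and 2 nt in bulges, was called miRNA-like, while the other 3 miR319 loci were called miRNA candidates.

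A miRNA* abundance of at least 1 was listed for 4 of 10 miR159 loci and 4 of 4 miR319 loci, against 43.8% of all 210 loci and 84 of the 196 others. All 8 of these strands had a miRBase name, and the 6 strands at 0 had none. Whether a strand at 0 was absent or only unnamed was not tested, so no difference between the families is read from this count. The call miRNA candidate was given to 8 of 10 miR159 loci and 3 of 4 miR319 loci, against 77.1% of all 210 loci. All 14 loci also met the structural limits stated in the methods, which held for 88.1% of all loci; these limits are 5 mismatch positions and 3 bulged nt in the duplex, a precursor shorter than 300 nt, and a miRNA length from 20 to 24 nt. The share called and the share within these thresholds were thus near those of the whole table. Nothing about the families is read from them. The methods also limit abundance, genome hits, strand bias and abundance bias, and these limits were not applied here. The set of conserved miRNAs that the paper reports is smaller than the deposited table. Meeting the structural limits therefore does not show that a locus belongs to that set.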

How the data were processed

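The authors mapped small RNA reads of 8 libraries with Bowtie (0.12.7 in the submitters' processing notes) to version 4.1 of the genome, kept sequences matching miRBase 21, and folded candidate hairpins. The deposited abundance is treated as a score, as its unit is not named. The paper gives read totals for each library, and these differ widely. How the libraries were weighted in the deposited values is not stated. The free energies (kcal/mol, also a deposited score), lengths and the mismatch and bulge counts of the authors were used as deposited. Each locus was counted once, by its more abundant arm and its most stable structure within the thresholds. Seeds, alignments, distances and duplex pairing were computed with Python 3.11.15, pandas 2.3.3, numpy 2.4.6 and matplotlib 3.10.9, and tested on simulated loci. The named miRNAs were, by rule, every sequence and locus of both families, their neighbours in abundance and families with precursors as long. Members and lists were chosen with earlier results of these data known. With 1 pooled value for each sequence, no statistical test was made. Alternatives covered thresholds, choice of structure, scaling of energy and matching of K and N copies. Gene annotation of another genome version was not used here.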

Additional observations from a re-analysis of the deposited data

How the results depend on the processing

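Of 18 alternatives, 14 kept the direction of the result, with counts within a factor of 1.5, and 3 of the 18 were chosen after seeing the data. Counts still changed in some of the 14, as with 7 and not 5 pairs when K and N copies were matched by order and miRNA. Some of the 14 could not have moved it and say nothing of stability: the 180 nt and 18 nt limits, the restriction to numbered chromosomes, and the summed miRNA* of bdi-miR159b-3p.1 and cpa-miR159b, which have 1 miRNA* with an abundance of at least 1 each. The same holds for the choice of structure in precursor length, since that length was taken from the start and stop of the precursor. Requiring a miRNA* abundance of at least 1 left 8 of 14 loci. The median energy of the 14 loci minus that of the others, -34.38 kcal/mol, was reversed per nt of hairpin (0.06715) and per nt of precursor (0.04748). Why the direction was reversed was not tested. Matching K and N copies by the miRNA alone gave 2 pairs and not 5, because it needs exactly 1 locus on each copy. The difference in median length was 95 nt, 97.5 nt by deposited hairpin length and 105.5 nt between the arms. By hairpin length, 11 of 14 were at least 200 nt, and the share of all loci on this measure was not counted. No paired analysis was possible because the table has no column for a single library and, per the labels, each condition has 1 library. How many reads stand behind the sequence listed at 3 and the strands listed at 0 is not known, and the 6 strands at 0 are those without a miRBase name.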

Other observations

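The name and value of a miRNA* did not always belong to the letters listed beside them. Of 291 structures with a named miRNA*, 40 at 15 loci gave other letters than those listed as a miRNA under the same name. Of the structures of the miR159 and miR319 loci, 6 of 22 did so, at 3 loci: both copies of locus 1, and the N copy of locus 2. In these, the listed strand was shorter or longer at an end than the sequence of that name. One structure of the N copy of locus 2 lists a strand of 23 nt under bdi-miR319b-3p, whose own sequence has 21 nt, with the same abundance of 10152.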
